A study of Homo sapiens with 6 samples.

Results

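ATP-binding cassette (ABC) transporter genes were examined in UBE2S knockout and wild-type Huh7 cells, a human hepatocellular carcinoma line. UBE2S is a ubiquitin-conjugating enzyme of the anaphase-promoting complex, and the series was made to look for genes downstream of it. There were 3 libraries of UBE2S knockout cells and 3 of wild-type cells, both of the same line, and the labels name no treatment. The members were all genes whose symbol was ABC, a letter from A to G and a number, without ABCA1, ABCG1 and ABCB11. This gave 42 of the 20289 genes in the table, and 34 of them had enough reads to be tested. The labels do not say how UBE2S was deleted or whether the knockout was a single clone or a pool.

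ABC proteins bind and split ATP through a conserved nucleotide-binding domain, and most use it to move a substrate across a membrane. Hepatocytes place some of them on the canalicular membrane, where they export bilirubin conjugates, drugs and phospholipid into bile, and others on the basolateral membrane, which faces the blood. Further members work in mitochondria, peroxisomes and lysosomes, and those of the E and F subfamilies have no membrane domain and act on ribosomes.

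In the knockout, 15 tested ABC genes were lower and 8 were higher than in wild type, while 11 did not pass the test (edgeR adjusted p under 0.05 over all 13265 tested genes). Over all tested genes the same test called 60.1%, with 30.7% lower and 29.4% higher. For the ABC genes the shares were 67.6% called, 44.1% lower and 23.5% higher, so the overall share called was near that of all tested genes. The median log2 fold change was -0.10 for the tested ABC genes, against -0.001 for all tested genes. Most differences were small, since 5 members reached an absolute log2 fold change of 0.5 and 2 reached 1. ABCC9, at 0.498 before rounding, is not among the 5.

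**Figure D1:**
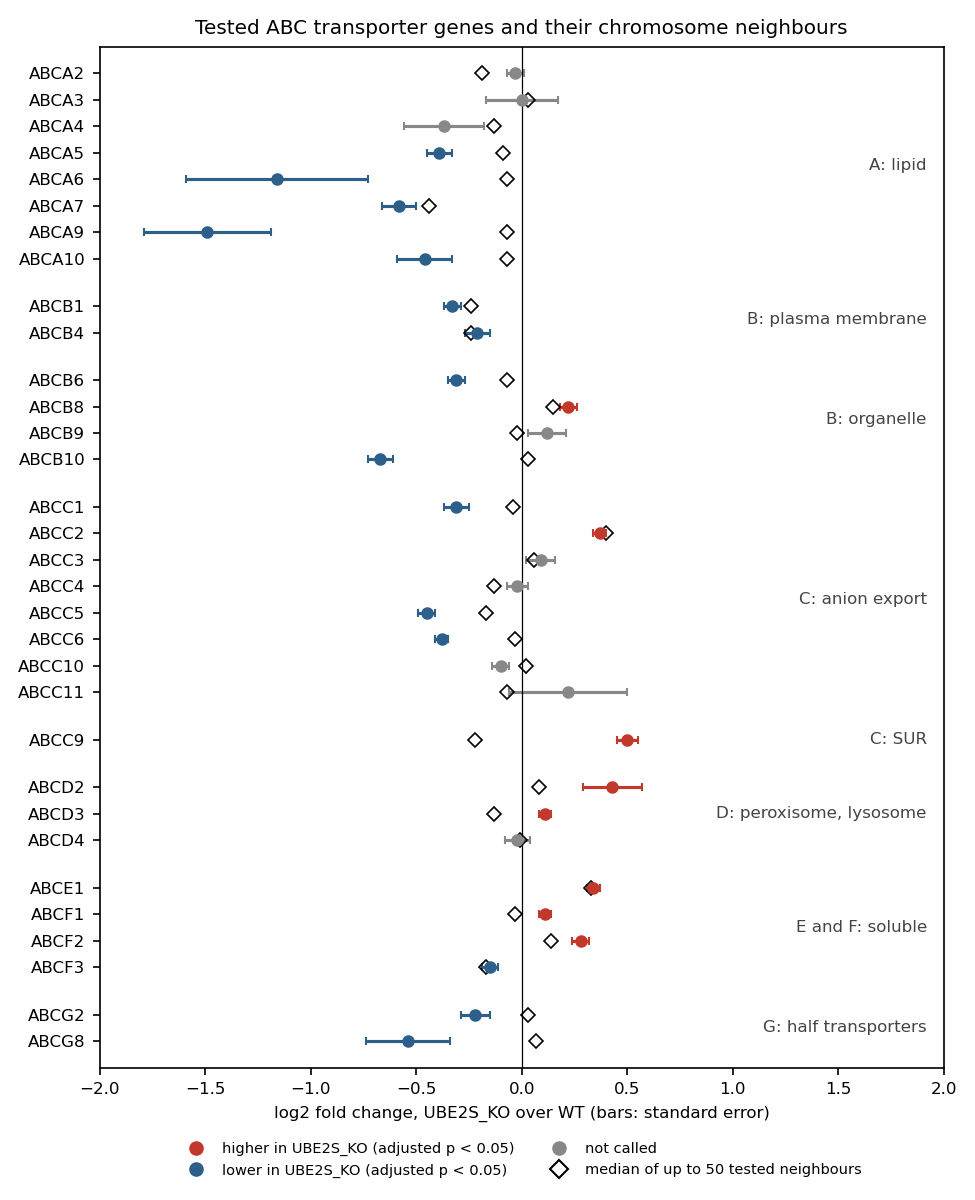
Log2 fold change of UBE2S knockout over wild type for the tested ABC genes described here (circles, bars are standard errors), grouped by role, with the median log2 fold change of the 25 tested genes on each side of each gene (diamonds). ABCA9 lies lowest at -1.49 and ABCC9 highest at 0.50, and for ABCC2 and ABCE1 the diamond lies within 0.03 of the gene's own value.

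The changes fell on genes of distinct roles. ABCB10, a transporter of the mitochondrial inner membrane, was at 62.7% of its wild-type level. ABCC9, the regulatory subunit of an ATP-sensitive potassium channel, was at 141%. The soluble ATPase gene ABCE1 and the bile canaliculus exporter gene ABCC2 were at 126% and 130%. The lipid transporter genes of the A subfamily were lower or not called, with 5 of 8 tested genes lower and 0 higher. Over all tested genes 30.7% were lower and 29.4% higher.

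Promoters of the 5 members that this account turns on are shown from RefSeq (GRCh38.p14), as 300 bases around the annotated start, on the strand of the gene. Capitals mark 5 motifs searched on both strands: the GC box GGGCGG, the CCAAT box, the E-box CACGTG, the TATA box TATAAA and the cyclic AMP response element TGACGTCA. The last was added after the ABCE1 sequence had been seen. The first 2 sequences belong to ABCB10 (chr1:229558658-229558957, minus strand) and ABCC9 (chr12:21941377-21941676, minus strand). Neighbours on the chromosome had a median change of 0.03 for ABCB10, which fell, and of -0.22 for ABCC9, which rose.
ABCB10: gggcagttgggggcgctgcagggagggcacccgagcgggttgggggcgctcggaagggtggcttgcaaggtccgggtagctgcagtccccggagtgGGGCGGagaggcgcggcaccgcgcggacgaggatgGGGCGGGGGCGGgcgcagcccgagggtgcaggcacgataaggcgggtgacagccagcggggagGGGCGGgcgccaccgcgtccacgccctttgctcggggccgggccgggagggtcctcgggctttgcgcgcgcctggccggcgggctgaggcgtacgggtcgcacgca
ABCC9: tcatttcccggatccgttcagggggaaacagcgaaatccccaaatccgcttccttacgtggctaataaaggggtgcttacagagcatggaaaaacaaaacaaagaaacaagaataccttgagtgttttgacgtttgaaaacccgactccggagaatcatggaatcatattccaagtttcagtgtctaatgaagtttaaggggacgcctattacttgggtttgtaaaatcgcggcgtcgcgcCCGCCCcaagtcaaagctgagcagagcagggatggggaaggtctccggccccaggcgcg
The next is that of ABCA9 (chr17:69060878-69061177, minus strand), the member with the largest fall.
ABCA9: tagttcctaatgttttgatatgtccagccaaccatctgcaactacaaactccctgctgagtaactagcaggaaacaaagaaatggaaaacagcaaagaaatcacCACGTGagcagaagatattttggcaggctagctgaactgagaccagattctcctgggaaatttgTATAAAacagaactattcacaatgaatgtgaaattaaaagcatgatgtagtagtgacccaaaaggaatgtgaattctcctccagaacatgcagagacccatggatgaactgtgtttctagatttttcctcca
The last 2 belong to ABCC2 (chr10:99782390-99782689, plus strand) and ABCE1 (chr4:145098061-145098360, plus strand), which rose as much as the genes around them.
ABCC2: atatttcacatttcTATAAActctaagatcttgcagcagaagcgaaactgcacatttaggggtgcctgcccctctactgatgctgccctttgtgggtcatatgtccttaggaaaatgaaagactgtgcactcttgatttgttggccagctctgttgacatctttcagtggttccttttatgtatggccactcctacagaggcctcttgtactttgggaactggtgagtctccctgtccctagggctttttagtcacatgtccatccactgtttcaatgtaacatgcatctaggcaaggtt
ABCE1: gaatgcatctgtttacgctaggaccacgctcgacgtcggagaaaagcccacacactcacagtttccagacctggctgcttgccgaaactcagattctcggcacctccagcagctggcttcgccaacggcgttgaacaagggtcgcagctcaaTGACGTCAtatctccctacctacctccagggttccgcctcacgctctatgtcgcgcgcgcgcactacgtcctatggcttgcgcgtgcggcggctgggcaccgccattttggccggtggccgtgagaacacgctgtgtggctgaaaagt
The ABCB10 promoter was 77.3% G and C with 39 CpG dinucleotides and 4 GC boxes. Those of ABCA9 and ABCC2 were 39.7% and 45.0% G and C with 1 CpG each and no GC box, and each held 1 TATAAA. GC boxes were present in 45.0% of 35116 promoters of this length, the TATAAA letters in 11.5%, CACGTG (present in that of ABCA9) in 7.26% and TGACGTCA (present in that of ABCE1) in 1.85%. Of the 19 tested members with a promoter in the table, 13 held a GC box and 5 a CCAAT box, which 34.6% of all promoters held. A match of letters is a description of the sequence and does not show that a factor binds there.

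Sequencing depth was similar in the groups: 21840499, 23337278 and 25840104 estimated counts in the knockout libraries and 27594276, 23300336 and 27910396 in the wild-type libraries. UBE2S itself stood at 47.6, 45.4 and 44.2 CPM (counts scaled to library size) in the knockout, against 234, 220 and 216 CPM in wild type, with log2 fold change -2.29 (edgeR adjusted p = 1.6e-12, SE 0.04). UBE2S transcript was thus lower but still present in the knockout, at 1046 to 1147 counts per library, and RNA counts do not show whether protein was made. Wild-type replicate 1 stood apart from the other 2 wild-type libraries (chi-square per degree of freedom 8.46 and 11.0, against 1.79 between those), and without it 8 members were higher and 15 lower, with the calls of ABCA6 and ABCD2 lost (edgeR adjusted p = 0.070 and 0.057) and those of ABCC3 and ABCC10 gained (0.035 and 0.033). Hepatocyte and hepatoma markers were abundant, with a summed level of 29400 to 30000 CPM in the knockout and 32200 to 33000 CPM in wild type. Of 11 such markers 3 were higher and 7 lower, where 29.4% of all tested genes were higher and 30.7% lower. Markers of other cell types also differed. The summed level of 7 stromal markers was 20.9 to 22.1 CPM in the knockout and 141 to 158 CPM in wild type, which in wild type was almost all COL1A2, with 3 of 5 tested genes higher and 2 lower. For 5 immune markers it was 179 to 182 CPM in the knockout and 290 to 313 CPM in wild type, mostly LYZ, with all 3 tested genes lower. The pan-leukocyte marker PTPRC was at 0.028 and 0.136 CPM in knockout and wild type, and CD3E and the endothelial marker KDR were at 0 counts. Of 4 endothelial markers 1 was tested and lower, with a summed level of 2.23 to 2.52 CPM in the knockout and 5.51 to 6.82 CPM in wild type. Cholangiocyte markers summed to 295 to 300 CPM in the knockout and 330 to 358 CPM in wild type, with 1 of 4 tested genes higher and 2 lower. Their part in the ABC results was not tested. Both groups were of the same cell line. In bulk RNA, fewer cells holding such a transcript and less of it per cell cannot be told apart. The labels do not say that replicates were separate cultures, so the p-values measure the spread between these libraries, which may be technical.

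All members together made up nearly the same amount of RNA in both groups. Their summed level was 1638, 1636 and 1631 CPM in the knockout libraries, against 1602, 1627 and 1635 CPM in wild type, which put the knockout at 100.9% of wild type. The make-up shifted instead. The B subfamily took 15.8% ± 0.343 of this sum in the knockout and 18.9% ± 0.340 in wild type, and the A subfamily 5.77% ± 0.0411 and 6.67% ± 0.192 (SD, n = 3 each). ABCE1 alone took 13.5% ± 0.317 in the knockout and 10.8% ± 0.225 in wild type. The C subfamily, with the largest share, stood at 32.7% ± 0.301 in the knockout and 32.9% ± 0.498 in wild type, within the spread between libraries. Since the members were chosen with results of these data known, these sums carry no test.

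**Figure D2:**
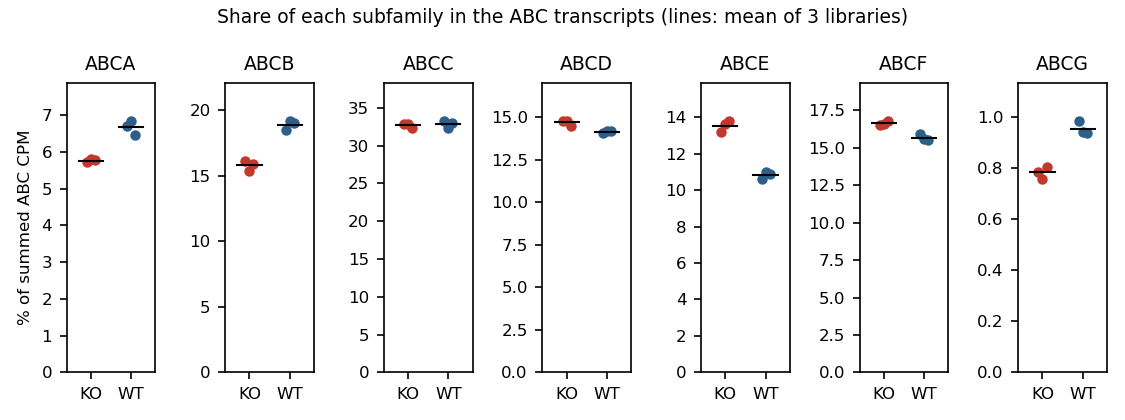
Share of each ABC subfamily in the summed CPM of the 42 members, in percent, for each of 3 knockout (left) and 3 wild-type (right) libraries, with lines at the means. The 2 groups are separate in every subfamily but ABCC, and each vertical axis starts at 0 with its own scale.

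Per kilobase of annotated exon, a scale on which genes can be compared, the most abundant members over all libraries were the ribosome-associated ABCF1 and ABCE1, at 32.6 and 31.7 CPM per kb. The peroxisomal ABCD3 and the canalicular ABCC2 followed at 22.8 CPM per kb each, then the multidrug exporter ABCB1 at 20.2. ABCC6 and ABCF2 were both at 15.8 CPM per kb. At the other end, ABCC8, ABCC12 and ABCG4 had 0 counts in all 6 libraries, which allows a level of up to 0.020 CPM each (3 counts over the 6 libraries, counting error only). Of the 8 members not tested, the other 5 were ABCA8, ABCA12, ABCA13, ABCB5 and ABCG5. In the knockout ABCA8 had 21 counts in all and ABCG5 12, against 22 and 28 in wild type. Between 1 and 6 counts were found for ABCA12, ABCA13 and ABCB5 in the knockout, and 0 to 7 in wild type.

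Members of the A subfamily move phospholipids and sterols. 4 of them that lie side by side on chromosome 17 were all lower in the knockout, where 30.7% of all tested genes were. ABCA9 (ENSG00000154258, 68974488 to 69061064, minus strand) had 0.546, 0.257 and 0.386 CPM in the knockout, against 0.998, 1.20 and 1.14 CPM in wild type. The groups did not overlap, at a low level: 28 counts in the knockout and 87 in wild type. Its log2 fold change was -1.49 (SE 0.30, edgeR adjusted p = 8.1e-04), and the ratio of summed counts was 0.354 (95% exact binomial interval 0.222 to 0.547, counting error only). ABCA6, the next gene, had 21 counts in the knockout and 52 in wild type, and its groups overlapped, since wild-type replicate 3 had 0.357 CPM and knockout replicate 2 had 0.428. Its log2 fold change was -1.16 (SE 0.43, edgeR adjusted p = 0.034). This call was lost with DESeq2 (adjusted p = 0.11) and without either of knockout replicates 1 and 3 or wild-type replicates 1 and 2 (-1.12, -0.91, -1.03 and -0.93, with edgeR adjusted p of 0.091, 0.14, 0.070 and 0.13).

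The other 2 genes of that row were better counted. ABCA10 had 3.09, 2.95 and 2.47 CPM in the knockout, against 4.03, 3.90 and 3.71 CPM in wild type, without overlap (log2 fold change -0.46, SE 0.13, edgeR adjusted p = 0.0096). DESeq2 did not call it (adjusted p = 0.076). ABCA5, which encodes a transporter of late endosomes and lysosomes, had 19.1, 20.6 and 21.6 CPM in the knockout, against 25.1, 27.6 and 27.9 CPM in wild type. Its log2 fold change was -0.39 (SE 0.06, edgeR adjusted p = 1.6e-04), again with no overlap. ABCA5 and ABCA10 share 318 exonic bases on the same strand, which is 3.78% of the exons of ABCA10, so a small part of their reads could be assigned to either. ABCA8, at the end of the row, was not tested. The median of the 50 tested genes nearest to each of the 4 lay between -0.09 and -0.07, and all 4 were still called lower after it was taken out as an offset. Single genes further out were lower too: FAM20A at -0.55 (SE 0.06), MAP2K6 at -0.28 (SE 0.05) and KCNJ16 at -2.28 (SE 0.44), all named after their values were seen. AMZ2 was higher at 0.42 (SE 0.05).

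Elsewhere in the A subfamily, ABCA7, which takes part in phagocytosis and lipid export, had 7.96, 6.97 and 7.71 CPM in the knockout, against 11.0, 11.5 and 11.4 CPM in wild type. These values did not overlap (log2 fold change -0.58, SE 0.08, edgeR adjusted p = 3.7e-05). Its neighbours on chromosome 19 were lower as well, with a median of -0.44, and with that offset ABCA7 stood at -0.14 and was not called (adjusted p = 0.16). ABCA2, the most abundant A gene, which acts in lysosomal sterol and sphingolipid handling, had 58.6, 59.1 and 57.9 CPM in the knockout, against 60.7, 61.1 and 57.2 CPM in wild type (-0.03, SE 0.04, edgeR adjusted p = 0.56). Its neighbours had a median of -0.19, and against them it was higher by 0.16 (adjusted p = 0.0043). ABCA3, the lamellar body phospholipid transporter, and ABCA4, the retinal retinoid transporter, had 2.38 and 1.48 CPM in the knockout, against 2.40 and 1.91 CPM in wild type, and were not called.

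**Figure D3:**
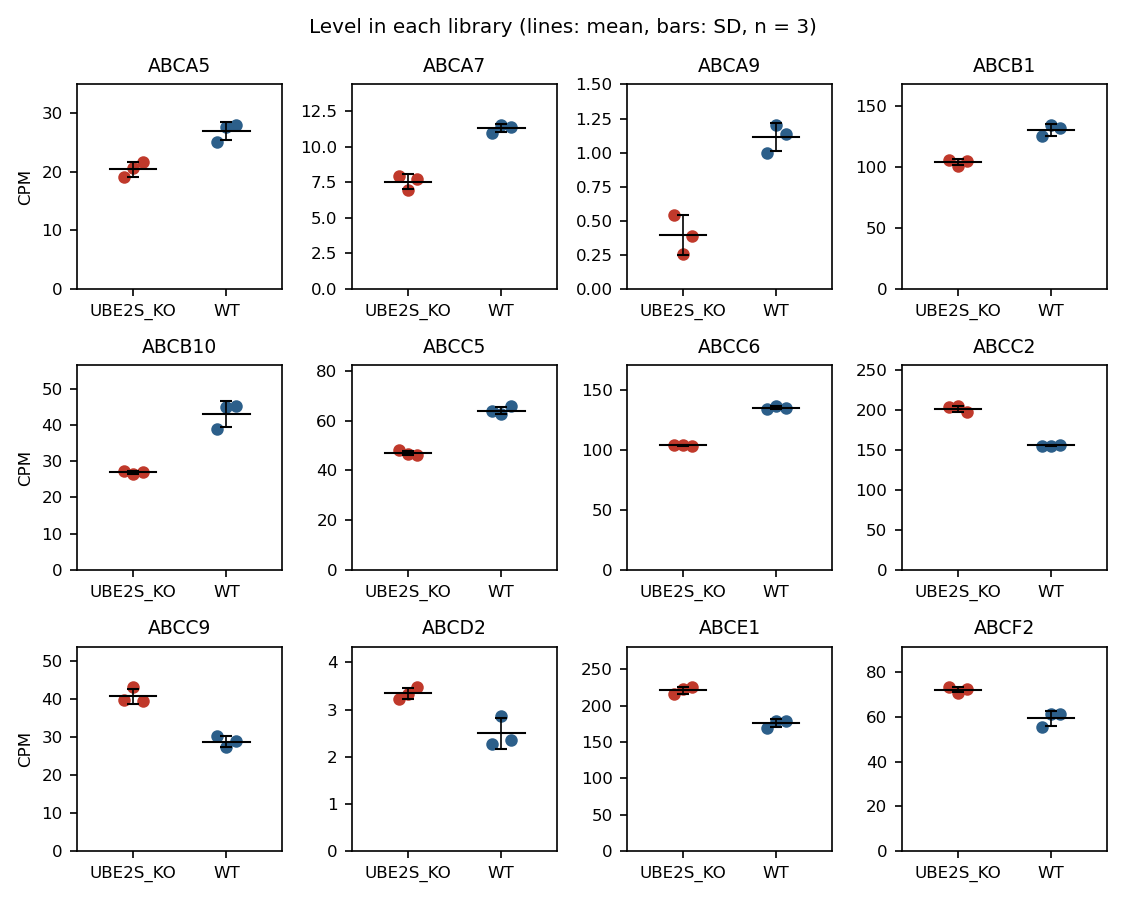
CPM of 12 ABC genes in each of the 3 knockout (left) and 3 wild-type (right) libraries, with the mean (line) and SD (bar) of each group. The 12 genes shown, 7 lower and 5 higher in the knockout, are a selection from the called members whose groups do not overlap. Other such members, ABCA10, ABCB6 and ABCD3 among them, are not drawn. Over all tested members the groups did not overlap at 73.5%, against 65.8% of all tested genes. Vertical axes start at 0 and differ between panels.

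Among plasma membrane members of the B subfamily, ABCB1 encodes P-glycoprotein, the multidrug exporter, and ABCB4 flips phosphatidylcholine into bile. ABCB1 (ENSG00000085563, chromosome 7, 87503633 to 87713323, minus strand) had 106, 101 and 105 CPM in the knockout, against 125, 134 and 132 CPM in wild type. The knockout was thus at 79.8% of wild type with no overlap (log2 fold change -0.33, SE 0.04, edgeR adjusted p = 6.3e-06). ABCB4, its neighbour 23198 bases away, had 12.0, 11.8 and 12.2 CPM in the knockout and 13.8, 14.3 and 13.6 CPM in wild type (-0.21, SE 0.06, edgeR adjusted p = 0.013; adjusted p = 0.12 with DESeq2). Both lie among genes with a median of -0.24. With that offset ABCB1 was at -0.09 (adjusted p = 0.060) and ABCB4 at 0.03 (adjusted p = 0.70), so neither was called against its neighbourhood.

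Of the 5 organelle members of the B subfamily, 2 were lower and 1 was higher, against 30.7% and 29.4% of all tested genes. ABCB10 (ENSG00000135776, chromosome 1, 229516582 to 229558695, minus strand), whose product takes part in heme synthesis and protection from oxidants, had 27.4, 26.5 and 27.0 CPM in the knockout. Wild-type libraries held 39.0, 45.0 and 45.1 CPM. The groups were far apart relative to the spread within them (log2 fold change -0.67, SE 0.06, edgeR adjusted p = 9.9e-07), and the neighbours had a median of 0.03. GENCODE lists 3 processed pseudogenes of ABCB10, outside the deposited table, which could take or give some of its reads. ABCB6, a porphyrin-related transporter, had 40.2, 39.5 and 41.3 CPM in the knockout, against 48.2, 52.0 and 49.9 CPM in wild type (-0.31, SE 0.04, edgeR adjusted p = 5.9e-05). A read-through gene covers 54.7% of the exons of ABCB6, so the split of reads between them is uncertain. ABCB8, which is needed for mitochondrial iron export in mouse heart, was the riser, with 48.1, 44.5 and 45.6 CPM in the knockout, against 39.8, 40.0 and 39.1 CPM in wild type (0.22, SE 0.04, edgeR adjusted p = 9.0e-04). Its neighbours had a median of 0.15, and with that offset it was not called (0.07, adjusted p = 0.22). The lysosomal peptide transporter gene ABCB9 was at 0.12 (SE 0.09) and was not called. On the opposite strand, 3 genes overlap 12.0% to 20.7% of the ABCB9 exons each, and whether counting used strand is unknown.

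A list of 22 genes for iron-sulfur clusters and heme, the processes these transporters serve, had 6 higher and 6 lower. The median log2 fold change was -0.02. Among all tested genes 29.4% were higher and 30.7% lower. HMOX1, which breaks heme down, rose by 0.54 (SE 0.04) and UROS, an enzyme of heme synthesis, by 0.52 (SE 0.04). SLC25A37, the mitochondrial iron importer mitoferrin, was lower at -0.74 (SE 0.07), as was the heme enzyme gene CPOX at -0.47 (SE 0.04). The list therefore held changes in both directions.

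Organic anion exporters of the C subfamily, often called multidrug resistance proteins, were split. ABCC2 (ENSG00000023839, chromosome 10, 99782640 to 99852594, plus strand), which exports bilirubin and glutathione conjugates into bile, had 203, 204 and 197 CPM in the knockout. In wild type it had 155, 155 and 156 CPM, so the groups were well separated (log2 fold change 0.37, SE 0.03, edgeR adjusted p = 2.5e-07). Its neighbours rose by as much, with a median of 0.40, and with that offset ABCC2 was at -0.03 (adjusted p = 0.41). ABCC3, the basolateral exporter of bile acid and drug conjugates, had 30.5, 26.1 and 26.2 CPM in the knockout, against 28.1, 24.4 and 24.9 CPM in wild type (0.09, SE 0.07, edgeR adjusted p = 0.29). The call for ABCC3 appeared only when wild-type replicate 1 was left out (0.16, adjusted p = 0.035). Taken within each library, the log2 ratio of ABCC2 to ABCC3 was 2.71, 2.94 and 2.89 in the knockout and 2.45, 2.64 and 2.62 in wild type, a difference of 0.28 (two-sided exact permutation p = 0.10, the smallest that 3 against 3 libraries allow; adjusted over 6 pairs 0.15).

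Of the 8 tested exporters of this group 3 were lower and 1 was higher, against 30.7% and 29.4% of all tested genes. ABCC6 (ENSG00000091262, chromosome 16, 16148928 to 16223522, minus strand), a liver protein whose loss causes ectopic mineralisation through low circulating pyrophosphate, had 104, 104 and 103 CPM in the knockout, against 134, 136 and 135 CPM in wild type. Libraries of a group agreed closely, and the log2 fold change was -0.38 (SE 0.03, edgeR adjusted p = 2.6e-07). GENCODE lists the pseudogenes ABCC6P1 and ABCC6P2, which are outside the deposited table and could share reads with it. ABCC1, which exports glutathione conjugates and leukotriene C and ends 5854 bases from ABCC6, had 23.5, 24.6 and 27.4 CPM in the knockout, against 31.7, 29.3 and 32.4 CPM in wild type (-0.31, SE 0.06, edgeR adjusted p = 0.0012). The ratio of ABCC1 to ABCC6 differed by 0.08 between groups (exact permutation p = 0.50), within its spread. ABCC5, an exporter of cyclic nucleotides and folates, had 48.1, 46.6 and 46.3 CPM in the knockout, against 63.8, 62.6 and 65.7 CPM in wild type (-0.45, SE 0.04, edgeR adjusted p = 7.4e-07). The 3 were also lower against their neighbours, at -0.35, -0.27 and -0.27 for ABCC6, ABCC1 and ABCC5.

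The remaining exporters did not pass the test. ABCC4, which carries cyclic nucleotides and bile acids, had 55.1, 53.0 and 53.1 CPM in the knockout and 51.8, 53.6 and 57.6 CPM in wild type, with overlap (-0.02, SE 0.05, edgeR adjusted p = 0.76). ABCC10 had 34.4, 36.0 and 34.8 CPM in the knockout, against 37.1, 37.6 and 38.3 CPM in wild type. Those groups did not overlap, but the difference of -0.10 (SE 0.04) missed the threshold (edgeR adjusted p = 0.058). It passed without wild-type replicate 1 (-0.12, adjusted p = 0.033) and against its neighbours (-0.12, adjusted p = 0.030). ABCC11 had 51 counts in the knockout and 48 in wild type, and no difference was detectable at this depth (0.22, SE 0.28).

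The sulfonylurea receptor ABCC9 transports nothing known by itself and forms the regulatory subunit of ATP-sensitive potassium channels. It had the largest rise of any tested member. ABCC9 (ENSG00000069431, chromosome 12, 21797401 to 21942529, minus strand) had 39.7, 43.1 and 39.4 CPM in the knockout, against 30.2, 27.4 and 28.9 CPM in wild type. The log2 fold change was 0.50 (SE 0.05, edgeR adjusted p = 5.1e-06), and the groups did not overlap. Its neighbours had a median of -0.22, and with that offset the difference was 0.72 (adjusted p = 2.9e-07).

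KCNJ8, the gene for the pore-forming channel subunit that pairs with ABCC9, starts at -166.9 kb from the start of ABCC9 on the same chromosome and was higher by more. It had 28.4, 27.4 and 25.4 CPM in the knockout, against 6.84, 7.16 and 7.24 CPM in wild type (log2 fold change 1.93, SE 0.07, edgeR adjusted p = 3.4e-10). Transcripts of both subunits of this channel type were therefore higher in the knockout, and protein was not measured. Around them the values went both ways: SPX was at 1.58 (SE 0.15), while RECQL was at -0.57 (SE 0.05), C2CD5 at -0.65 (SE 0.06) and ETNK1 at -1.06 (SE 0.05), all named after their values were seen. ABCC8, the other sulfonylurea receptor gene, had 0 counts, and its channel partner KCNJ11 was not tested, at 0.286 CPM in the knockout and 0.322 CPM in wild type.

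**Figure D4:**
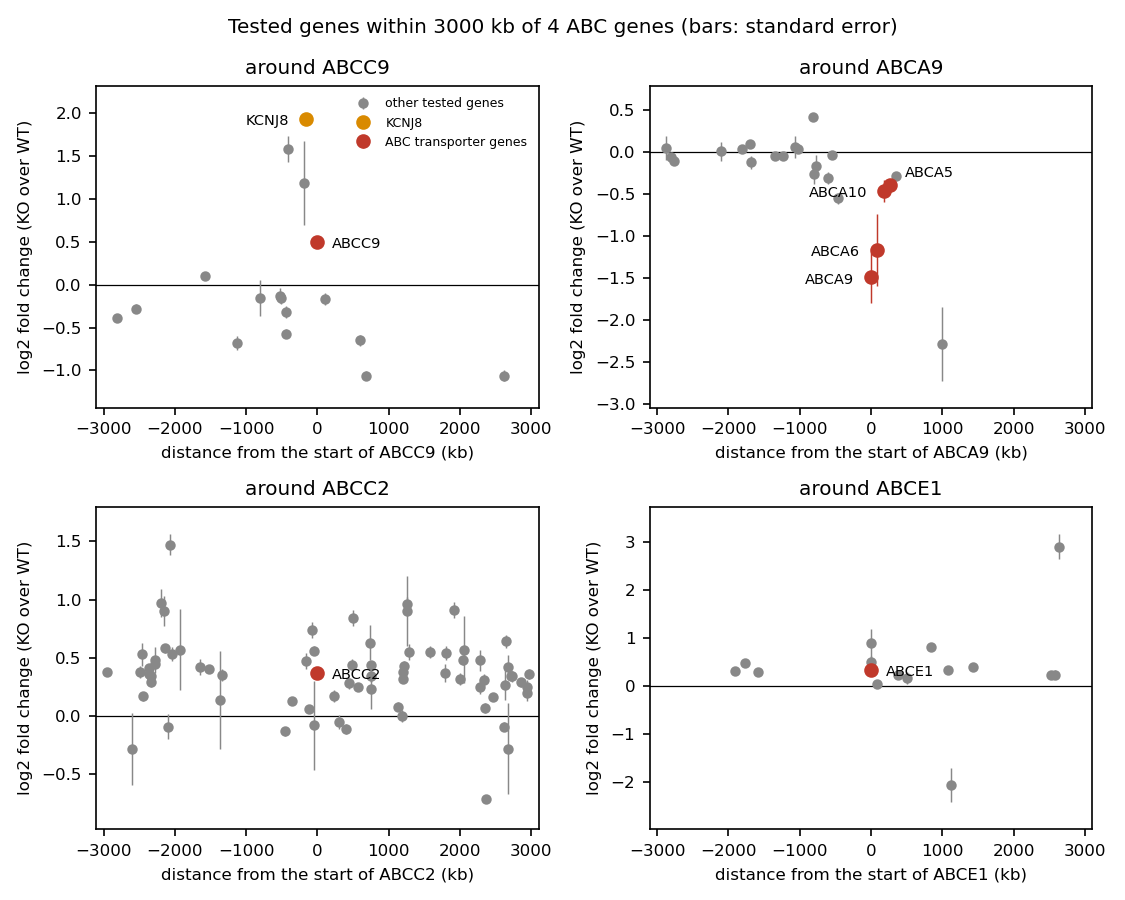
Log2 fold change (knockout over wild type, bars are standard errors) of tested genes within 3000 kb of the start of ABCC9, ABCA9, ABCC2 and ABCE1, against distance in kb along the chromosome. ABCC9 and KCNJ8 lie above most of their surroundings, the 4 ABCA genes lie below most of theirs, and ABCC2 and ABCE1 lie within theirs.

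In the D subfamily 2 of 4 genes were higher and 0 lower, against 29.4% and 30.7% of all tested genes. ABCD3, the most abundant of them, brings long and branched fatty acids and bile acid precursors into peroxisomes. It had 181, 181 and 176 CPM in the knockout, against 159, 168 and 171 CPM in wild type (log2 fold change 0.11, SE 0.03, edgeR adjusted p = 0.012). The groups did not overlap, but the call was lost without knockout replicate 1 (0.11, adjusted p = 0.051) or 2 (0.11, adjusted p = 0.055). ABCD2, which carries very long and polyunsaturated fatty acids, had 3.23, 3.33 and 3.47 CPM in the knockout, against 2.26, 2.87 and 2.35 CPM in wild type (0.43, SE 0.14, edgeR adjusted p = 0.020). Its call was lost with DESeq2 (adjusted p = 0.12), against its neighbours (0.35, adjusted p = 0.053), and without knockout replicate 3 or wild-type replicate 1 or 3 (0.40, 0.37 and 0.39, adjusted p of 0.064, 0.057 and 0.062). ABCD4, which moves cobalamin out of lysosomes, was at -0.02 (SE 0.06).

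Genes that work beside the D transporters were mixed. Of 19 genes for peroxisome assembly and oxidation, 4 were higher and 6 lower, with a median of -0.05. Among all tested genes 29.4% were higher and 30.7% lower. PEX7, a receptor for peroxisomal proteins, rose by 0.90 (SE 0.14), and PEX3, which docks membrane proteins, by 0.42 (SE 0.05). The tether gene ACBD5 was lower at -0.62 (SE 0.04), and ELOVL1, which makes very long fatty acids, was lower at -0.55 (SE 0.06). Among 9 cobalamin genes 2 were higher and 3 lower (median 0.03). LMBRD1, the lysosomal partner of ABCD4, and MTR, methionine synthase, were lower at -0.22 (SE 0.06) and -0.33 (SE 0.03), as was MMACHC at -0.44 (SE 0.07). The cobalamin uptake receptor gene CD320 rose by 0.36 (SE 0.04) and MMADHC by 0.15 (SE 0.04). With the median of each gene's neighbours as an offset, LMBRD1 was still lower at -0.36, while MTR was called higher at 0.11. MMACHC at -0.16, CD320 at 0.03 and MMADHC at 0.06 were then not called.

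All 4 soluble members were called, 3 higher and 1 lower, where 60.1% of all tested genes were called. With the neighbourhood offset 2 were higher and 0 lower. ABCE1 (ENSG00000164163, chromosome 4, 145097932 to 145129179, plus strand) splits ribosomes into subunits after termination. It had 216, 223 and 225 CPM in the knockout, against 169, 179 and 179 CPM in wild type, without overlap (log2 fold change 0.34, SE 0.03, edgeR adjusted p = 1.9e-06). The median of its neighbours was 0.33, and with that offset ABCE1 was at 0.00 (adjusted p = 0.98). ANAPC10, a subunit of the anaphase-promoting complex, starts 0.6 kb from ABCE1 on the other strand and was at 0.51 (SE 0.11, edgeR adjusted p = 0.0016). Exons of ANAPC10 overlap 7.49% of those of ABCE1, and without strand their shared reads cannot be told apart.

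The F members are linked to translation initiation and ribosome quality control. ABCF1 had 152, 152 and 155 CPM in the knockout, against 146, 140 and 140 CPM in wild type (0.11, SE 0.03, edgeR adjusted p = 0.0084). ABCF2 had 73.3, 70.9 and 72.8 CPM in the knockout, against 55.4, 61.6 and 61.3 CPM in wild type (0.28, SE 0.04, edgeR adjusted p = 1.3e-04). Both were separate between groups and were also higher against their neighbours, at 0.13 and 0.14. ABCF2 shares 45.8% of its exonic bases with the read-through gene ABCF2-H2BE1, which had 33.3 CPM in the knockout and 34.3 CPM in wild type (-0.04, SE 0.07), so the split of reads between them is uncertain. ABCF3 had 45.2, 49.4 and 46.7 CPM in the knockout, against 53.6, 51.9 and 51.4 CPM in wild type (-0.15, SE 0.04, edgeR adjusted p = 0.010). With its neighbours' median of -0.17 as an offset, ABCF3 stood at 0.02 (adjusted p = 0.70), and its call was lost without knockout replicate 1 (-0.12, adjusted p = 0.059).

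Of 14 genes for ribosome recycling and translation, 5 were higher and 3 lower, against 29.4% and 30.7% of all tested genes. Their median was -0.00. EIF5 rose by 0.37 (SE 0.03) and HBS1L, whose product works with ABCE1 on stalled ribosomes, by 0.33 (SE 0.03). EIF3J and EIF2S3 were lower at -0.24 (SE 0.04) and -0.18 (SE 0.03). With the median of each gene's neighbours as an offset, EIF5 at 0.31 and EIF3J at -0.14 were still called. HBS1L at 0.07 and EIF2S3 at -0.06 were not. PELO, the partner of HBS1L, was at -0.02 (SE 0.04) and was not called.

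Both tested G members were lower, where 30.7% of all tested genes were. ABCG2, the breast cancer resistance protein, which exports urate and drugs, had 10.8, 11.3 and 11.4 CPM in the knockout, against 13.3, 12.5 and 13.2 CPM in wild type (-0.22, SE 0.07, edgeR adjusted p = 0.014). It was not called with DESeq2 (adjusted p = 0.12) or without knockout replicate 1 (-0.19, adjusted p = 0.051). ABCG8, which pairs with ABCG5 to send sterols into bile, had 1.77, 1.11 and 1.46 CPM in the knockout, against 2.03, 2.40 and 1.93 CPM in wild type (-0.54, SE 0.20, edgeR adjusted p = 0.033). The call for ABCG8 was lost with DESeq2 (adjusted p = 0.14) and without knockout replicate 2 or 3 or wild-type replicate 2 (-0.39, -0.56 and -0.45, adjusted p of 0.14, 0.077 and 0.11). ABCG5 had 0.273, 0 and 0.231 CPM in the knockout, against 0.481, 0.386 and 0.214 CPM in wild type, and was not tested. Its ratio of summed counts was 0.471 (95% exact binomial interval 0.218 to 0.957, counting error only).

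Genes that regulate ABC transporters or share their substrates gave further counts. Of 15 nuclear receptors and other regulators 8 were lower and 1 was higher, with a median of -0.18. Among all tested genes 30.7% were lower and 29.4% higher, with a median of -0.001. FOXO3 rose by 0.59 (SE 0.04). YBX1, a nucleic acid-binding protein linked to ABCB1 expression, was lower at -0.53 (SE 0.06), and the xenobiotic sensor gene AHR and the antioxidant regulator gene NFE2L2 were both at -0.47 (SE 0.04 each). Their CPM were 734, 87.4 and 257 in the knockout and 1060, 121 and 357 in wild type for YBX1, AHR and NFE2L2. NR1I2, the pregnane X receptor gene, was at 1.47 CPM in the knockout and 1.27 CPM in wild type and was not called.

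Among 17 other carriers of organic solutes, mostly for uptake but with the exporters SLC47A1, SLC51A and SLC51B, 12 were tested, of which 3 were higher and 5 lower (median -0.14). The carnitine carrier gene SLC22A5 was lower at -1.03 (SE 0.11) and SLC22A9 at -0.86 (SE 0.06), while SLC22A18 rose by 0.62 (SE 0.06) and SLCO2B1 by 0.40 (SE 0.04). Of 10 apical scaffold and lipid partner genes 5 were higher and 2 lower (median 0.16). For both lists, the shares among all tested genes were 29.4% higher and 30.7% lower. PDZK1, whose product anchors apical transporters, had 92.4, 91.6 and 94.0 CPM in the knockout, against 56.3, 49.6 and 54.6 CPM in wild type (0.79, SE 0.04, edgeR adjusted p = 1.7e-08). TMEM30A, the partner subunit of phospholipid flippases, rose by 0.48 (SE 0.05), and RDX, radixin, which links ABCC2 to actin in mouse liver, and MYO5B, a motor of apical recycling, were lower at -0.41 (SE 0.03) and -0.51 (SE 0.06). Of the ABC genes without such a symbol, the antigen peptide transporter genes TAP1 and TAP2 were lower at -1.67 (SE 0.12) and -0.51 (SE 0.07), and CFTR was not called (0.35, SE 0.26).

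Further pairs of related genes were compared in the same way, as log2 ratios within each library. ABCB1 to ABCB4 averaged 3.06 ± 0.02 in the knockout and 3.18 ± 0.05 in wild type, and ABCE1 to ABCF1 0.53 ± 0.03 in the knockout and 0.30 ± 0.08 in wild type (SD, n = 3 each, exact permutation p = 0.10 and adjusted p = 0.15 for each). In both pairs the groups did not overlap. ABCG5 to ABCG8 averaged -1.56 ± 0.13 in the knockout and -1.62 ± 0.21 in wild type (exact permutation p = 0.70), with overlap. The 0.5 CPM added to each gene exceeded every ABCG5 value, so it largely set this ratio. With 0.1 CPM added the difference changed sign, so this pair cannot be read as changed or unchanged.

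Neighbourhood values bear on how the members' calls read. Of the 15 lower members 12 had neighbours with a median below 0, from -0.44 for ABCA7 to -0.03 for ABCC6. Over all tested members, called or not, the median of these neighbour medians was -0.05, so the count of 12 by itself says little. When each gene's neighbourhood median was entered as an offset, 12 members were lower and 5 higher, while over all tested genes 27.7% were lower and 26.8% higher. Of these, 11 of the 15 lower and 4 of the 8 higher were the same genes, and 0 changed direction between calls. The members that lost their call were ABCA7, ABCB1, ABCB4 and ABCF3 among the lower and ABCB8, ABCC2, ABCD2 and ABCE1 among the higher. Those of ABCA5, ABCA6, ABCA9, ABCA10, ABCB6, ABCB10, ABCC1, ABCC5, ABCC6, ABCG2 and ABCG8 remained lower, and those of ABCC9, ABCD3, ABCF1 and ABCF2 remained higher. The offset was treated as known, so its own error is not in these p-values.

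The libraries of the groups did not overlap at 25 of the 34 tested members (73.5%), 16 lower and 9 higher in the knockout, against 65.8% of all tested genes.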

How the data were processed

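Gene-level estimated counts, as the authors deposited them, covered 6 poly(A) RNA libraries, 3 UBE2S_KO and 3 WT, grouped by sample title. Tools named, per the submitters' processing notes, were StringTie 1.3.1, HISAT2, DESeq2 and Bowtie2 2.2.8. For the counting program, genome build, annotation and strand setting, the sources used here give nothing. Estimated counts were rounded. edgeR 4.0.16 in R 4.3.3 kept 13265 genes (filterByExpr, minimum count 10), scaled by TMM and compared the groups by quasi-likelihood F test with Benjamini-Hochberg adjustment over all of them at 0.05. CPM were computed on TMM-scaled library sizes. SEs were derived from the fold change and F. Exon lengths and gene positions came from GENCODE release 29 (GRCh38), matched by identifier for 99.4% of genes and all 42 members. The neighbourhood median took 25 tested genes on each side, fewer at chromosome ends. The ratio of each of 6 gene pairs was computed with 0.5 CPM added. edgeR was tested on simulated data. DESeq2 1.42.0 and limma 3.58.1 were alternatives.

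The members, gene lists and tests were chosen with earlier results of these data known. Full values were given by rule to the 10 called members with the largest change per direction, to the most abundant member per role and to up to 2 called genes per direction in each list; other names are additions. Replicate numbers were not used as pairs: same-numbered libraries of the groups had correlated deviations of 0.0097, -0.0144 and 0.00939. Within groups no 2 libraries agreed within sampling noise, with chi-square per degree of freedom of 1.39 to 1.54 in the knockout and 1.79 to 11.0 in wild type, the highest values with wild-type replicate 1. Values of some members are not reported here.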

Additional observations from a re-analysis of the deposited data

How the results depend on the processing

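With the neighbourhood median as an offset, 5 members rather than 8 were higher and 12 rather than 15 lower, and 3556 rather than 3903 and 3678 rather than 4072 of all genes. In every other alternative (other scalings, filters, DESeq2, limma-voom, the replicate block, libraries left out) 7 to 8 members were higher and 10 to 16 lower. DESeq2 gave 7 and 10. With the replicate block, 8 were higher and 15 lower, and 3872 and 4041 of all genes, against 3903 and 4072 without it. Leaving out single libraries gave 7 to 8 higher and 12 to 16 lower members, and 3437 to 4115 higher and 3675 to 4342 lower genes.

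The log2 ratio of summed ABC levels was 0.012, and 0.026 on library totals only. Per length in place of CPM, differences in share (percentage points) were -0.557 for ABCA, -4.115 for ABCB, 0.428 for ABCD, 1.644 for ABCF and -0.200 for ABCG, against -0.906, -3.089, 0.590, 1.001 and -0.172. The ratio of ABCG5 to ABCG8 differed by 0.058, by -0.412 with 0.1 CPM added, and by -0.017 to 0.181 with libraries left out.

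Of 473 refits of single members, 433 kept direction and call, 28 lost and 5 gained a call, and 11 changed sign, of which 3 also lost and 1 also gained a call. The sign changes were, with the offset, ABCA2 (0.159), ABCB4 (0.032), ABCC2 (-0.030), ABCC4 (0.111) and ABCF3 (0.022), and ABCA3 on library totals and with limma-voom (both 0.009). With single libraries left out, ABCA3 ranged from -0.093 to 0.147 (0.077 without knockout replicate 3), ABCC4 from -0.055 to 0.027 and ABCD4 from -0.058 to 0.029. Causes were not tested. Members under about 1 CPM are limited by their counts.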
